A study of Mus musculus with 12 samples.

Results

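The effect of losing Aag in livers exposed to an alkylating agent was examined by setting the 3 arrays titled MMS_KO against the 3 titled MMS_WT, 6 of the 12 arrays in the study, over every probe set that is not an array control. All animals were C57Bl/6J mice of 6 to 8 weeks, and each array holds liver RNA of 1 animal (n = 3 per group). The MMS_WT mice were wild type and the MMS_KO mice lacked Aag. Both groups received 1 intraperitoneal injection of methyl methanesulfonate (MMS) at 75 mg/kg, and livers were taken 6 hours later. The other 6 arrays hold untreated mice of the same genotypes, 3 of each. They serve as the background of the genotype, and they also enter the estimate of spread that all comparisons share. The labels name no tissue-specific driver for the deletion. Whether the untreated mice received a vehicle injection is not given in the sources used here.

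Aag, whose gene is called Mpg in the mouse, is a DNA glycosylase that cuts alkylated bases such as 3-methyladenine out of DNA and so starts base excision repair. MMS methylates DNA bases and also modifies proteins and RNA. The glycosylase leaves an abasic site that must be cut, filled and sealed, and these intermediates are themselves toxic when later steps lag, which is why cells and tissues can be either protected or harmed by Aag under alkylation. Liver is a main site of drug conjugation and of plasma protein, cholesterol and bile acid synthesis, and it answers stress with the endoplasmic reticulum (ER) stress response and the acute phase response.

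The 6 MMS arrays did not separate by genotype as whole profiles. Correlations between them across probe sets ran from 0.969 to 0.987. The array of MMS_KO 3 was closest to untreated_WT 2 (r = 0.989), while MMS_WT 1 was closest to untreated_KO 2 (r = 0.989). The 5′ minus 3′ signal of the array's control transcripts, a measure of RNA quality, stood at -1.61, -1.51 and -2.46 on the log2 scale in MMS_KO 1 to 3 and at -2.61, -2.0 and -2.46 in MMS_WT 1 to 3, so MMS_KO 1 and 2 lay above all the other arrays and MMS_KO 3 did not. For these reasons counts, genes of smallest p and some of the gene groups are given also without MMS_KO 3 or with this signal as a covariate. A fit without MMS_KO 3 keeps only MMS_KO arrays whose signal lay above every MMS_WT array. Genotype and this signal cannot be told apart in that fit. Array medians ran from 7.42 to 7.75. The choice of scaling moved the balance of the comparison. The median difference over all probe sets was 0.02 as deposited and -0.14 after median centring, and the share of positive differences among probe sets with an unadjusted p under 0.05 was 58%, 46.1% after a further quantile normalization and 20.8% after median centring.

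Of the 22626 probe sets, 4 passed an adjusted p of 0.05 in the limma fit, which is 0.0177% of those tested. These belonged to 2 genes of 12393 (0.0161%), 1 higher and 1 lower (0.00807% each). Pttg1, which encodes securin, the inhibitor of separase that holds sister chromatids together until anaphase, fell in MMS_KO by all 3 of its probe sets. Ighv14-2, a variable segment of the immunoglobulin heavy chain, rose. No other gene was called, although 4156 probe sets (18.4%) had an unadjusted p under 0.05 by the same limma fit.

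The Pttg1 probe set of highest signal read 12.77, 13.21 and 13.02 in the MMS_WT livers and 10.33, 10.56 and 10.66 in the MMS_KO livers, on the log2 scale. The groups were separated by more than 2 log2 units, and no animal lay between them. Its fitted difference was -2.49 ± 0.15 (SE, n = 3 per group), 5.6-fold lower, with a limma adjusted p of 8.98e-05. The next brightest probe set read 11.08, 11.80 and 11.53 against 8.32, 8.90 and 8.57, a difference of -2.87 ± 0.19 (7.33-fold, limma adjusted p = 0.000146). For the dimmest the values were 8.98, 9.37 and 9.56 against 6.51, 7.04 and 6.97, a difference of -2.47 ± 0.18 (5.52-fold, limma adjusted p = 0.000173). The 3 Pttg1 probe sets gave differences of -2.32, -2.86 and -2.73 in untreated liver, so the deficit was of much the same size with and without MMS. The test of the difference between both treatments gave unadjusted limma p-values of 0.447, 0.948 and 0.314 in the same order. Pttg1 was the only gene past the threshold in both genotype comparisons. Their group means come from different arrays, but their tests share 1 estimate of the spread from all 12 arrays.

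**Figure D1:**
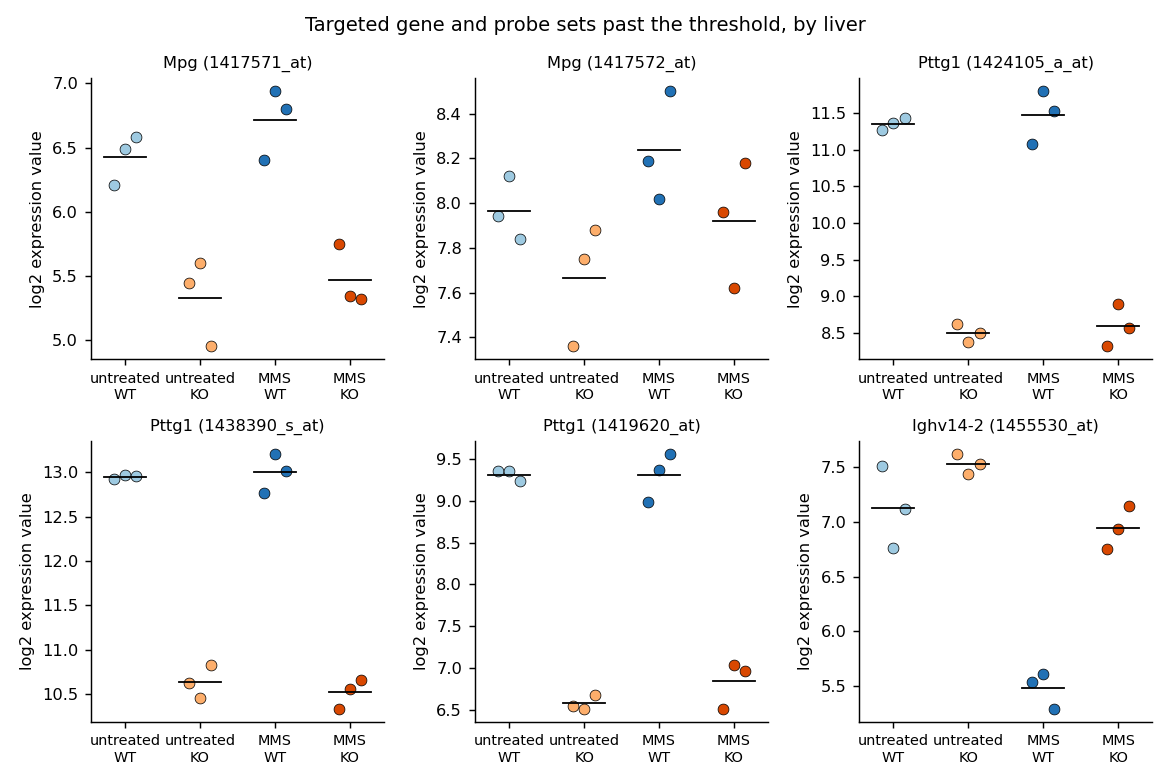
Log2 expression of the 3 Pttg1 probe sets, the 2 Mpg probe sets and Ighv14-2 in each of the 12 livers; points are animals and bars are group means. Every knock-out liver lies below every wild-type liver for Pttg1, with and without MMS, while the Ighv14-2 groups are apart only after MMS.

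The targeted gene was lower by one of its probe sets. The dimmer Mpg probe set read 6.40, 6.94 and 6.80 in MMS_WT and 5.75, 5.34 and 5.32 in MMS_KO. The groups did not overlap, and the difference was -1.24 ± 0.21 (2.37-fold lower, limma adjusted p = 0.0793, exact permutation p = 0.1, two-sided, the smallest that 3 against 3 can give). The brighter probe set read 8.19, 8.02 and 8.50 against 7.96, 7.62 and 8.18, with overlapping groups and a difference of -0.32 ± 0.19 (limma adjusted p = 0.400). The sources used here do not say which stretch of Mpg was removed or whether either probe set reads it. MMS_KO 3, which stood near an untreated wild-type array as a whole profile, had the lowest value of the dimmer probe set and a low Pttg1 value.

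Mpg and Pttg1 both lie on chromosome 11, with 110 annotated genes between them. Of the 10 annotated genes on each side of Mpg, 8 had a probe set of their own. Snrnp25, a protein of the minor spliceosome, stood 0.56 higher in MMS_KO. Nprl3, a subunit of the GATOR1 complex that restrains mTORC1, stood 0.44 higher. The alpha globin genes went opposite ways, with Hba-a2 at 0.52 and a low-signal Hba-a1 probe set at -0.76. These 4 had an unadjusted limma p under 0.05, and Nsg2 (0.33), Il9r (-0.28), Rhbdf1 (0.37) and Hba-x (-0.43) did not. Over the whole of chromosome 11, 21.2% of 1041 genes had an unadjusted p under 0.05, against 19.3% of the genes elsewhere.

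Ighv14-2 was read by 1 probe set at 5.54, 5.61 and 5.29 in MMS_WT and 6.75, 6.93 and 7.14 in MMS_KO. The difference was 1.46 ± 0.19 (2.74-fold, limma adjusted p = 0.0448), and the groups did not overlap. In untreated liver the values were 7.51, 6.76 and 7.12 in wild type and 7.62, 7.44 and 7.53 in knock-out, a difference of 0.40. The MMS_WT livers were therefore the low group among the 4. The difference between both genotype differences was 1.06 with a limma adjusted p of 0.131. The call was near the threshold: over the alternative analyses the difference ran from 1.29 to 1.55, and among the fits that left out 1 array the call was kept without untreated_WT 1, untreated_WT 2 or MMS_KO 3. Other immunoglobulin probe sets went both ways. Of 42 probe sets for heavy, kappa and lambda chain genes, grouped after their values were seen, 21 were positive and 21 negative, with a median of 0.02. At an unadjusted limma p under 0.05 4 were higher and 1 lower. The negative ones were all dim, with MMS_WT means of 6.31 or less, and some positive ones were dim too. Those with an MMS_WT mean of 7.09 or more were all positive, from 0.70 to 1.88, with unadjusted limma p-values from 0.0135 to 0.477. Beside Ighv14-2 the higher ones were kappa chain probe sets, of Igkv8-30 (1.88 ± 0.64), of Igk (1.69 ± 0.64) and of another variable segment (1.22 ± 0.40), and another Igk probe set was the lower one (-0.68 ± 0.28). The 3 probe sets of Igha, the constant region of IgA, stood at 1.72, 1.12 and 1.03 with unadjusted limma p-values of 0.0773, 0.115 and 0.186.

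**Figure D2:**
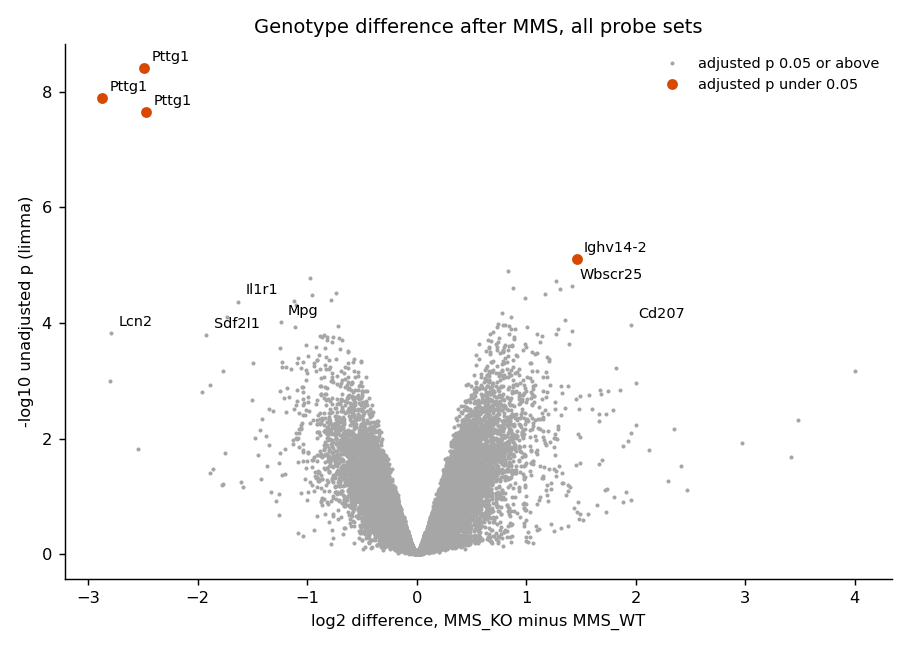
Log2 difference (MMS_KO minus MMS_WT, x axis) against -log10 of the unadjusted limma p (y axis) for the 22626 probe sets. Orange marks the 4 probe sets past the adjusted threshold: the 3 Pttg1 probe sets lie alone at the top left, and Ighv14-2 is the 1 called probe set on the right.

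Behind these calls lay a wide layer of smaller differences. At the level of genes, each read by its brightest probe set with 1 gene symbol, 1478 of 12393 had a positive difference with an unadjusted limma p under 0.05 (11.9%) and 939 a negative one (7.58%). In 2349 genes (19.0%) the 3 MMS_KO values all lay above or all below the 3 MMS_WT values, 11.6% above and 7.40% below. A difference of at least 1 on the log2 scale, a 2-fold change, was seen in 170 genes (1.37%). The counts rested on MMS_KO 3 being in the fit: without it 1118 probe sets passed the adjusted threshold (4.94%) and 607 genes did, 389 higher (3.14%) and 218 lower (1.76%). Without MMS_WT 1 the count of probe sets was 3, and leaving out any single array other than MMS_KO 3 gave 3 to 6. For the gene groups that follow, the shares of all genes with an unadjusted p under 0.05 were 14.7% higher and 11.7% lower without MMS_KO 3, 7.67% and 4.54% with the 5′ to 3′ covariate, which left 4 probe sets called (0.0177%), and 3.35% and 3.91% between the untreated genotypes.

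Genes with the smallest p on the higher side, none of them past the adjusted threshold beyond Ighv14-2, covered several functions. Mpv17l, a peroxisomal protein linked to reactive oxygen, read 8.79, 8.95 and 9.07 in MMS_WT and 9.79, 9.72 and 9.80 in MMS_KO (0.83 ± 0.11, limma adjusted p = 0.0564). Irs1, the adaptor that carries the insulin receptor signal to PI3 kinase, read 9.89, 9.65 and 10.10 against 10.73, 10.80 and 10.75 (0.88 ± 0.13, limma adjusted p = 0.0569). Both genes had tight and separate groups. Adamdec1, a metalloproteinase-like protein of macrophages and dendritic cells, read 6.59, 6.67 and 6.84 against 7.68, 8.30 and 7.64 (1.17 ± 0.17). Cd207, the Langerhans cell lectin langerin, had the largest difference among them at 1.96 ± 0.33, from 6.03, 5.76 and 6.73 to 7.54, 8.78 and 8.06. MMS_KO 2 was the highest animal for both of these. Psen2, a catalytic subunit of gamma-secretase, stood at 1.01, with a second probe set at 0.02. Ap3m2, a subunit of the AP-3 adaptor, stood at 0.74, with other probe sets at -0.15 and -0.04. The rest were Wbscr25 (1.42), Anp32a, an acidic nuclear phosphoprotein (0.86), 2610528J11Rik (0.81), Sp100, a component of PML nuclear bodies (0.79), and Zmynd8, a chromatin reader (0.73). The limma adjusted p-values of these genes lay at or under 0.0793, and each passed the threshold without MMS_KO 3. With the 5′ to 3′ covariate none of these genes passed, Mpv17l and Irs1 included, with limma adjusted p-values from 0.0856 to 0.196.

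On the lower side after Pttg1 no gene passed the adjusted threshold either. Lcn2, which encodes lipocalin 2, an iron-siderophore binding acute phase protein, read 12.90, 12.71 and 12.26 in MMS_WT and 9.23, 10.93 and 9.33 in MMS_KO. The difference was -2.79 ± 0.49 (6.92-fold, limma adjusted p = 0.0793), and MMS_KO 2 was the nearest to the wild-type animals. Il1r1, the signalling receptor for interleukin 1, read 11.75, 12.08 and 11.89 against 10.20, 10.83 and 9.79 (-1.63 ± 0.25, 3.10-fold, limma adjusted p = 0.0569). Sdf2l1, a cofactor of the ER chaperone BiP, read 9.96, 9.72 and 9.38 against 8.26, 7.05 and 7.99 (-1.92 ± 0.34, 3.79-fold). None of these 3 genes had overlapping groups. Eya3, a tyrosine phosphatase that acts on histone H2AX, stood at -0.97 ± 0.13, with a second probe set at -0.05. Skap2, an adaptor of Src family signalling, stood at -0.74 ± 0.11. Smaller or dimmer members were Ang2 (-1.11), Nhsl1 (-1.10), Papln (-0.96), Sox6, a transcription factor (-0.77), and Rhbdd1, a rhomboid protease of the ER (-0.71). Each of these genes too passed the threshold without MMS_KO 3. None did with the 5′ to 3′ covariate, where their limma adjusted p-values ran from 0.0824 to 0.244.

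Gene groups were described by how many of their measured members had an unadjusted limma p under 0.05 in each direction and by their median difference, to be read beside 11.9% higher, 7.58% lower and a median of 0.03 over all genes. No member of these groups other than Pttg1 passed the adjusted threshold. Many of the groups' medians changed sign with the scaling. Those of the cholesterol, ER, PERK and ATF4, acute phase, NF-kB, interferon, gluconeogenic, endothelial, stellate, Kupffer and lymphocyte lists held their sign in every alternative run.

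**Figure D3:**
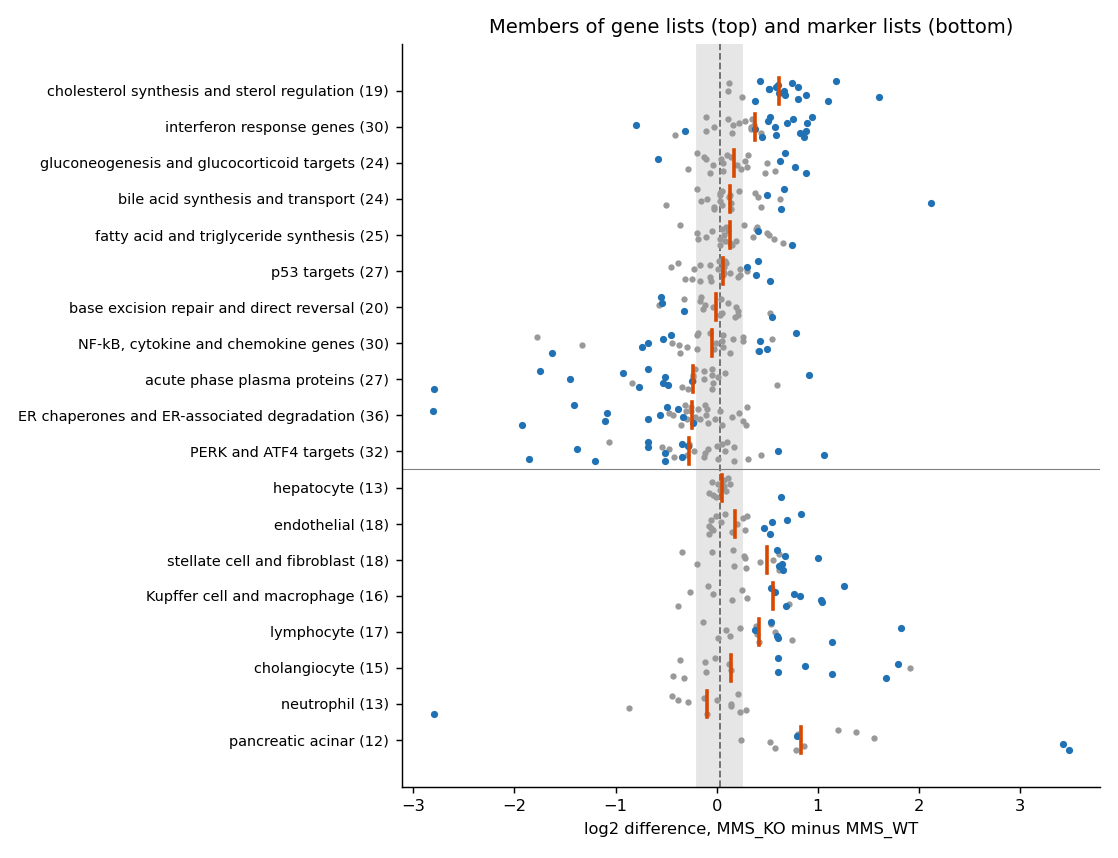
Each measured gene of the pathway and marker lists as a point at its log2 difference (MMS_KO minus MMS_WT, x axis), with the list median as an orange bar, unadjusted p under 0.05 in blue, and a grey band from -0.19 to 0.25 for the interquartile range of all genes. The cholesterol list lies wholly above 0 with a median of 0.62, and the ER, PERK and ATF4, and acute phase lists have medians of -0.24, -0.27 and -0.23.

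Cholesterol synthesis showed the most uniform shift among the pathway lists. Of 25 listed genes 19 were measured, all 19 stood higher in MMS_KO, the groups did not overlap in 12, and 16 had an unadjusted limma p under 0.05, with a median of 0.62. Srebf2, the transcription factor that drives the pathway, read 8.26, 8.74 and 8.62 in MMS_WT and 9.48, 9.42 and 9.13 in MMS_KO (0.80 ± 0.15, limma adjusted p = 0.0793). Msmo1, a sterol C4 demethylation enzyme, read 10.23, 10.74 and 10.75 against 11.92, 11.49 and 11.61 (1.10 ± 0.20). Sqle, squalene epoxidase, read 9.17, 9.44 and 9.64 against 10.99, 10.09 and 10.72 (1.18 ± 0.25). In all 3 genes the lowest MMS_KO animal lay above the highest MMS_WT animal. Fdps, farnesyl diphosphate synthase, had the largest difference (1.60 ± 0.42) and a wide spread, from 9.06 to 10.64 in MMS_WT and from 10.57 to 12.02 in MMS_KO, with overlapping groups and a second probe set at -0.51. Fdft1, squalene synthase, stood at 0.88 by its brightest probe set, and its 3 others gave -0.35, -0.25 and 0.99. Pmvk, phosphomevalonate kinase, and Hmgcs1, the synthase that feeds HMG-CoA to the pathway, stood at 0.74 and 0.52. Lss, Ebp and Mvd were the 3 members with a larger p. The list median was 0.46 after median centring, and 11 genes had an unadjusted p under 0.05 with the 5′ to 3′ signal as covariate, while without MMS_KO 3 the count was 16 and 5 genes passed the adjusted threshold. Between untreated livers the list's median was -0.07. The median response to MMS was -0.60 in wild type and 0.01 in knock-out, values that share their MMS arrays with the comparison above.

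The ER chaperone and ER-associated degradation genes lay on the other side. Of 36 measured genes 11 were lower and 0 higher at an unadjusted limma p under 0.05, 9 with groups that did not overlap, and the median was -0.24. The members that stood lowest belong to protein folding and to the export of misfolded proteins. Derl3, a channel component of ER-associated degradation, read 11.39, 10.41 and 11.20 in MMS_WT and 9.21, 6.86 and 8.54 in MMS_KO, a difference of -2.80 ± 0.63 (6.95-fold, limma adjusted p = 0.105). Creld2, a disulfide isomerase-like protein of the ER, read 12.83, 13.11 and 12.85 against 12.46, 11.37 and 11.64 (-1.10 ± 0.35). Syvn1, the ubiquitin ligase HRD1, read 10.76, 10.43 and 10.73 against 10.32, 8.77 and 9.58 (-1.08 ± 0.35). MMS_KO 2 was the lowest animal for all 3 of these genes and for Sdf2l1, and MMS_KO 1 the highest. Pdia4, a disulfide isomerase, stood at -1.41 with a second probe set at -0.07, Ern1, the stress sensor IRE1 alpha, at -0.68, Herpud1, a partner of the degradation complex, at -0.56 and Hsp90b1, the chaperone GRP94, at -0.49. Hspa5, the chaperone BiP, was high on every MMS array, from 13.40 to 13.58 in wild type and from 13.18 to 13.46 in knock-out, and its difference of -0.21 had an unadjusted limma p of 0.188. Xbp1, the transcription factor of the IRE1 branch, stood at -0.10, and its other probe sets at 0.02, -0.25 and -0.02. The list's count was 8 lower with the 5′ to 3′ covariate and 12 lower against 3 higher without MMS_KO 3, when 3 passed the adjusted threshold. Between untreated livers 5 genes were lower and 0 higher with a median of -0.09, and Derl3, Sdf2l1 and Pdia4 stood at -2.01, -1.31 and -1.43 there.

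Several promoters of this list carry the ER stress element, the sequence bound by ATF6 and XBP1. Some are shown so that the element can be seen in members lower at an unadjusted limma p under 0.05. Hspa5, whose p was larger, is shown beside them. The motif was CCAAT, then 9 bases of any kind, then CCACG, on either strand and in the 250 bases before the annotated start, from RefSeq on GRCm38.p6. It was found in 9 of 29 ER genes with such a window (31%) and in 17 of the 9887 tested genes with one (0.172%). Among the 11 members that stood lower at an unadjusted p under 0.05, 9 had a window and 4 of these held the element, Derl3, Syvn1, Creld2 and Hsp90b1, while Sdf2l1, Pdia4, Ern1, Herpud1 and Os9 did not. Of the other 25 members 20 had a window and 5 held it: Dnajc3 (-0.31), Hspa5 (-0.21), Calr (-0.18), Canx (-0.11) and Pdia6 (-0.02), whose unadjusted limma p-values ran from 0.103 to 0.906. The windows are chr10:75893148-75893397 on the plus strand for Derl3, chr19:6046326-6046575 on the plus strand for Syvn1, chr15:88819396-88819645 on the plus strand for Creld2, chr10:86705445-86705694 on the minus strand for Hsp90b1 and chr2:34771840-34772089 on the plus strand for Hspa5. Each is written 5′ to 3′ along the gene, with the element in capitals.
Derl3: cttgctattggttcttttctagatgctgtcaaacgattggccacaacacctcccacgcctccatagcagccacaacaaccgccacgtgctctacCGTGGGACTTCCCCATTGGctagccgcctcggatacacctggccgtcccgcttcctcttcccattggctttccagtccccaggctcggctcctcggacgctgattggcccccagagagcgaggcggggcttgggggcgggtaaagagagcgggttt
Syvn1: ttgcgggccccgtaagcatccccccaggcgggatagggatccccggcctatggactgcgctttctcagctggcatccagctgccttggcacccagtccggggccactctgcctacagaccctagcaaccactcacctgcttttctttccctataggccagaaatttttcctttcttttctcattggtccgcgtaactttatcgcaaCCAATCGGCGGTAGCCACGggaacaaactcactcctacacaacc
Creld2: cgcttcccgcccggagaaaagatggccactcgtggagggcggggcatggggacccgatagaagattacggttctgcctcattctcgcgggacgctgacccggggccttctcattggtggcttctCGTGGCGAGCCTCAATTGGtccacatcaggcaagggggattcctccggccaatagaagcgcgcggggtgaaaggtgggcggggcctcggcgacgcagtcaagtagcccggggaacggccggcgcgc
Hsp90b1: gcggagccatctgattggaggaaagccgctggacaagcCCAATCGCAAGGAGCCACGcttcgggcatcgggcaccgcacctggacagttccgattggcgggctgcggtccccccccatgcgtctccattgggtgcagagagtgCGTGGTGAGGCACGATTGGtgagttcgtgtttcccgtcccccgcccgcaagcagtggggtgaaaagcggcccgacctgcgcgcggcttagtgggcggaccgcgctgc
Hspa5: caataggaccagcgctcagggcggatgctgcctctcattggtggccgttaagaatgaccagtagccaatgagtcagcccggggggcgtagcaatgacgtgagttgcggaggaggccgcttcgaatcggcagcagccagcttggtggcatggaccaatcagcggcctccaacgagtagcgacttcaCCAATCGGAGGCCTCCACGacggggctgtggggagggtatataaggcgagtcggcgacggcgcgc
The first base of the element lies 156 bases before the start in Derl3, 44 in Syvn1, 126 in Creld2 and 65 in Hspa5, and Hsp90b1 has 2 elements, the first at 212 bases. The match is a description of these letters, and no binding was measured.

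Targets of PERK and ATF4, the branch of the stress response that lowers translation and raises amino acid synthesis, were mostly lower but not as one block. Of 32 measured genes 10 were lower and 2 higher at an unadjusted limma p under 0.05, with a median of -0.27. Atf3, a stress-induced transcription factor, read 7.14, 6.98 and 6.52 in MMS_WT and 6.16, 6.32 and 6.11 in MMS_KO (-0.68 ± 0.21), and Fgf21, a fasting and stress hormone of the liver, read 6.29, 6.08 and 6.25 against 5.68, 5.62 and 5.79 (-0.51 ± 0.13). Both were dim, and neither had overlapping groups. The serine and one-carbon enzymes Psat1 and Mthfd2 and the asparagine synthetase Asns stood at -1.86, -1.38 and -1.20, but MMS_WT 2 was low for all 3, with Psat1 at 9.99, 6.75 and 9.26 against 6.43, 6.52 and 7.45, so their groups overlapped. The members that stood higher were Ddit4, an inhibitor of mTORC1 (1.06), and Sesn2, another inhibitor of that kinase (0.61), whose second probe set gave -0.40. Atf4 itself (0.17, with other probe sets at 0.13 and -0.43) and Ddit3, which encodes CHOP (-0.27), had larger p-values. With the 5′ to 3′ covariate the count was 4 lower and 2 higher. The promoter element TGATGNAA, to which C/EBP and ATF dimers bind, was found on either strand in 10 of 28 windows of this list (35.7%) against 2.79% of all windows, and no ER stress element was found there.

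Acute phase genes were lower in MMS_KO 1 and 3 and less so in MMS_KO 2. Of 27 measured genes 10 were lower and 1 higher at an unadjusted limma p under 0.05, with a median of -0.23. The mean level of the list, relative to each gene's mean over all arrays, was 0.58, 0.44 and 0.49 in MMS_WT and 0.00, 0.49 and -0.24 in MMS_KO, so the value of MMS_KO 2 lay among the wild-type animals. Besides Lcn2, Orm2, an orosomucoid, read 10.90, 12.22 and 11.77 against 9.70, 11.50 and 8.42 (-1.75 ± 0.63). Saa2, a serum amyloid A protein, read 13.98, 13.61 and 13.82 against 12.34, 13.57 and 11.16 (-1.45 ± 0.53). Saa1 stood at -0.93. The members with tight groups were Serpina3n, a serine protease inhibitor, at 13.44, 13.05 and 13.40 against 12.61, 12.87 and 12.81 (-0.53 ± 0.13), and Steap4, a metalloreductase, at 12.70, 12.42 and 12.56 against 11.81, 12.21 and 11.63 (-0.68 ± 0.17). Cd14, the lipopolysaccharide co-receptor, was the member that stood higher (0.91 ± 0.22). Without MMS_KO 3 the count was 6 lower and 1 higher, and with the covariate 9 and 1. Between untreated livers the list's median was 0.02.

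Upstream inflammatory genes went both ways. Of 30 genes of NF-kB signalling, cytokines and chemokines 5 were lower and 4 higher, with a median of -0.05 that ran from -0.22 to -0.03 over the alternatives. The count was 7 lower and 2 higher with the 5′ to 3′ covariate and 3 and 3 without MMS_KO 3. Il1r1, described above, Tnf (-0.74, dim in every animal) and Icam1, an adhesion molecule, at 10.35, 10.71 and 10.36 against 9.82, 10.17 and 9.85 (-0.53 ± 0.15), stood lower. Ccl5, a T cell chemokine, stood 0.78 higher.

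Interferon response genes stood higher in MMS_KO. Of 30 measured genes 13 were higher and 2 lower at an unadjusted limma p under 0.05, with a median of 0.38. Usp18, a protease that removes ISG15, read 9.04, 8.98 and 9.28 in MMS_WT and 9.99, 10.14 and 9.84 in MMS_KO (0.89 ± 0.16, limma adjusted p = 0.0793). Oasl1, an oligoadenylate synthetase-like protein, read 7.92, 8.09 and 8.34 against 8.83, 9.01 and 9.08 (0.86 ± 0.15, limma adjusted p = 0.0793). Ifit3, an antiviral protein, read 9.26, 9.89 and 9.55 against 10.37, 10.98 and 10.16 (0.94 ± 0.23). The groups did not overlap in any of these 3. Psmb9, an immunoproteasome subunit, stood at 0.88 and Irf7, the master regulator of type I interferon, at 0.44 with an unadjusted limma p of 0.0607, while Isg20, an exonuclease, went the other way (-0.80). The list median was 0.21 after median centring, and 8 genes were higher and 1 lower with the 5′ to 3′ covariate. Without MMS_KO 3 the count was 13 higher and 3 lower, and 5 and 1 passed the adjusted threshold. In untreated liver the median was -0.18, with 7 genes lower and 0 higher. The test of the difference between treatments had 15 genes of the list higher and 1 lower at an unadjusted p under 0.05, where 10.7% and 7.74% of all genes were, and none passed after adjustment.

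**Figure D4:**
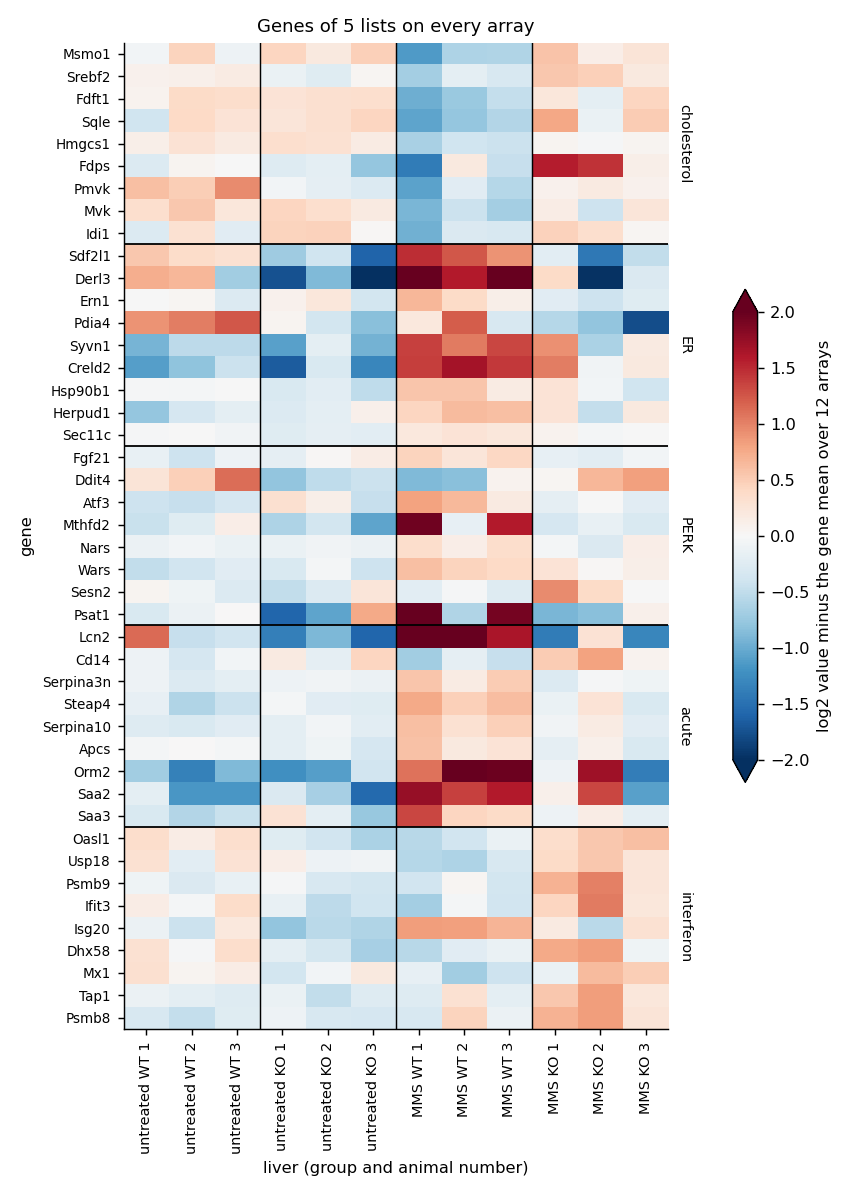
Log2 expression relative to each gene's mean over 12 arrays, for the list genes with the smallest p (rows), in the 12 livers (columns). Most cholesterol and interferon genes are lower in the MMS_WT columns than in the MMS_KO columns, most ER, PERK and acute phase genes are higher there, and Orm2 and Saa2 stand out as high in MMS_KO 2.

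Base excision repair genes differed as often as genes in general. Of 20 measured base excision repair and direct reversal genes 1 was higher and 3 lower at an unadjusted limma p under 0.05, 4 of 20 in all against 19.5% of all genes, and the median was -0.01. Apex1, the endonuclease that cuts the abasic site left by Aag, read 12.03, 11.41 and 11.70 in MMS_WT and 11.18, 10.92 and 11.42 in MMS_KO, with overlapping groups (-0.54 ± 0.18). Its other probe sets stood at -0.02 and -0.58. Fen1, the flap endonuclease of long-patch repair, stood at -0.55 and Parg, which removes poly(ADP-ribose), at -0.32. With the 5′ to 3′ covariate Apex1, Fen1 and Parg stood at -0.25, -0.35 and -0.19. The list had 1 gene higher and 0 lower in that fit. Nthl1, another glycosylase, stood at 0.55, with 6.75, 6.82 and 6.84 against 7.26, 7.58 and 7.23. Mgmt, which removes the methyl group from O6-methylguanine, stood at 0.53 with an unadjusted limma p of 0.0851. Of 27 other repair and checkpoint genes 3 were higher and 2 lower, among them the mismatch repair genes Msh6 (0.77 ± 0.17) and Pms2 (-0.68 ± 0.22), which went opposite ways, and Xpa, of nucleotide excision repair (0.78, with its other probe sets at -0.12 and -0.06). Of 15 NAD genes, a pool drawn on by poly(ADP-ribose) polymerase, 2 were higher and 1 lower, with Afmid, a formamidase of the tryptophan route, at 0.88. Of 27 p53 targets 4 were higher and 0 lower with a median of 0.06 that turned to -0.10 after median centring. With the 5′ to 3′ covariate 1 p53 target was higher and 1 lower. Mdm2, the p53 ligase, stood at 0.41, Sesn1, a sestrin, at 0.53 and Cdkn1a, the inhibitor p21, at -0.45 (0.09 by its second probe set) with an unadjusted limma p of 0.397.

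Of 38 cell cycle and replication genes, the list that holds Pttg1, 1 was lower and 3 higher. Apart from Pttg1 these were Tk1, thymidine kinase (1.07), Gmnn, the licensing inhibitor geminin (0.85), and E2f1 (0.46, with a second probe set at -0.16). The median of 0.16 became 0.00 after median centring, while in untreated liver it was -0.49 with 13 genes lower and 0 higher. Of 18 clock genes 1 was lower and 0 higher. Dbp, an output regulator of the clock, read 12.49, 12.77 and 12.64 in MMS_WT and 12.49, 12.16 and 12.83 in MMS_KO (-0.14, and 0.41 by a second probe set), and Nr1d1, the repressor REV-ERB alpha, 9.24, 9.91 and 9.85 against 10.48, 10.45 and 9.84 (0.59 ± 0.33). The untreated genotypes differed by 3.36 and 3.60 in these genes. The time of day at which livers were taken is not given in the sources used here. Whether it differed between groups therefore cannot be told.

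Of the metabolic lists, bile acid synthesis and transport had 4 of 24 genes higher and 0 lower. Cyp7a1, the rate-limiting enzyme of bile acid synthesis, read 7.74, 9.51 and 9.97 in MMS_WT and 10.98, 11.34 and 11.25 in MMS_KO, a difference of 2.12 ± 0.74 with a limma adjusted p of 0.189. MMS_WT 1 was the lowest animal, and the other 2 wild-type livers also lay below every knock-out. Fgfr4, the receptor through which FGF15 restrains Cyp7a1, read 8.86, 9.32 and 9.19 against 9.75, 9.82 and 9.71 (0.64 ± 0.13), and Nr5a2, a nuclear receptor acting on Cyp7a1, stood at 0.50. The list's median of 0.13 turned to -0.04 after median centring. Of 24 gluconeogenic and glucocorticoid genes 4 were higher and 1 lower, with Klf15, a fasting-induced transcription factor (0.77), and Tat, tyrosine aminotransferase (0.68), beside Irs1, and with Insr, the insulin receptor, at -0.58 with a second probe set at 0.08. Of 23 genes of the growth hormone axis 4 were higher and 1 lower, with Igfbp3, the main carrier of IGF1, at 7.79, 8.83 and 8.47 against 9.70, 10.54 and 9.31 (1.49 ± 0.37), and Igfals, its partner in plasma, at 0.62. Of 44 drug metabolism genes 6 were higher and 3 lower, among them the aryl hydrocarbon receptor targets Cyp1a1 (1.20) and Cyp1a2 (0.77), and Cyp3a44 (-0.80). Of 25 fatty acid and triglyceride synthesis genes 2 were higher and 0 lower, with Scd2, a stearoyl-CoA desaturase, at 8.23, 8.05 and 8.39 against 9.06, 8.89 and 8.94 (0.74 ± 0.14). In either direction, the share with an unadjusted limma p under 0.05 was 16.7% for the bile acid list and 20.8% for the gluconeogenic list. It was 21.7% for the growth hormone axis, 20.5% for drug metabolism and 8.0% for fatty acid synthesis. All of these were near or under the 19.5% of all genes. The remaining lists also had no larger share than that. These were fatty acid oxidation (2 higher and 2 lower of 30), NRF2 targets (3 and 2 of 29), proteasome subunits (1 and 2 of 32), ribosome biogenesis factors (4 and 0 of 36), heat shock proteins (0 and 1 of 22), the BCL2 family (3 and 1 of 24) and MHC genes (3 and 0 of 17). Without MMS_KO 3 the proteasome list had 10 higher and 3 lower.

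Markers of Kupffer cells, lymphocytes and stellate cells stood higher in MMS_KO, and those of neutrophils, erythroid cells and adipocytes did not. Hepatocyte markers stood level, with 1 of 13 higher, a median of 0.05 and Alb, albumin, between 14.16 and 14.53 on all 6 arrays. Kupffer cell and macrophage markers had 8 of 16 higher and 0 lower with a median of 0.56. Clec4f, a lectin of Kupffer cells, read 10.02, 11.07 and 10.54 in MMS_WT and 11.45, 12.17 and 11.12 in MMS_KO (1.03 ± 0.31), and Adgre1, a surface receptor of mature macrophages, read 9.99, 9.98 and 10.02 against 10.55, 10.68 and 10.83 (0.69 ± 0.15). Both were higher in every knock-out. Lymphocyte markers had 6 of 17 higher and 0 lower with a median of 0.42, among them Cd79b, of the B cell receptor (1.14), and Gzma, granzyme A (1.82). Stellate cell and fibroblast markers had 6 of 18 higher and 0 lower with a median of 0.50, including Dcn, decorin (0.66), and Col3a1, a fibrillar collagen (0.65). With the 5′ to 3′ covariate the higher and lower counts were 2 and 0, 5 and 0, and 3 and 1 for these 3 lists in turn. In bulk liver, fewer cells of a type and less RNA per cell cannot be told apart. The part of these cells in the interferon, Ighv14-2, Cd207 and Adamdec1 values was not tested.

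**Figure D5:**
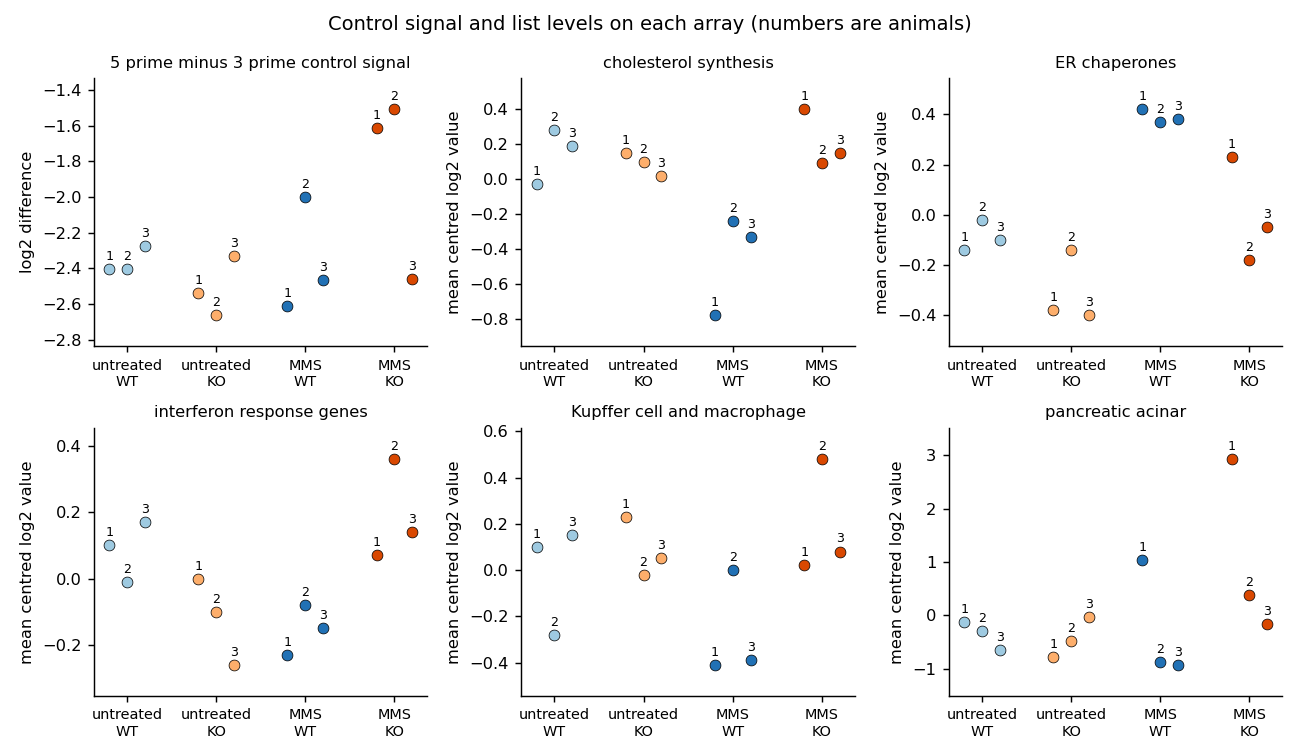
The 5′ minus 3′ control signal and the mean level of 5 lists, relative to each gene's mean over 12 arrays (log2), in each liver. The Kupffer levels of the 3 MMS_KO livers lie above those of the 3 MMS_WT livers, and the cholesterol level runs from 0.09 to 0.40 in MMS_KO and from -0.78 to -0.24 in MMS_WT.

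The levels by animal show the spread behind these lists. Kupffer cell markers stood at -0.41, 0.00 and -0.39 in MMS_WT and 0.02, 0.48 and 0.08 in MMS_KO, lymphocyte markers at -0.36, -0.34 and -0.49 against 0.00, 0.15 and 0.14, and stellate markers at -0.56, -0.26 and -0.47 against -0.08, 0.05 and -0.09. No list among these 3 overlapped between genotypes, although the Kupffer levels of MMS_WT 2 (0.00) and MMS_KO 1 (0.02) nearly met. Such separation was not particular to these cells. The levels of the endothelial and of the pericentral and periportal hepatocyte markers did not overlap either. Nor did those of the cholesterol, ER, interferon, bile acid, growth hormone and BCL2 lists. Endothelial markers had 5 of 18 higher with a median of 0.18 that became 0.01 after median centring, and cholangiocyte markers 6 of 15 higher, among them Krt19, a bile duct keratin (1.67), and Tff3, a trefoil peptide (1.79), with a median of 0.14 that became -0.02. Neutrophil markers had 0 of 13 higher and 1 lower, which was Lcn2, with a median of -0.10, and erythroid markers 1 higher and 1 lower of 9. With the 5′ to 3′ covariate endothelial and cholangiocyte markers each had 3 higher and 0 lower, and neutrophil markers 0 higher and 4 lower. Pericentral and periportal hepatocyte markers each had 1 higher and 0 lower, of 10 and of 8, adipocyte markers 0 higher and 1 lower of 8, and 4 sex-linked transcripts 0 of either. Pancreatic acinar markers, which can mark tissue taken along with the liver, had 3 of 12 higher. The count was 0 higher with the 5′ to 3′ covariate. Reg1 stood at 7.71, 5.01 and 4.74 against 9.85, 10.97 and 7.10, and Zg16 at 8.66, 4.27 and 4.90 against 10.46, 11.36 and 6.28. The list level was 1.04, -0.87 and -0.93 in MMS_WT and 2.93, 0.38 and -0.17 in MMS_KO. It was thus highest in MMS_KO 1, while Reg1 and Zg16 were highest in MMS_KO 2. The source of these transcripts was not tested. The list's median of 0.83 ran from -0.03 to 1.62 over the alternatives.

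Setting the MMS comparison beside the untreated one, whose group means come from other animals, gave few genes with separate groups and the same direction in both. Across all genes the genotype differences with and without MMS correlated at r = -0.27. In untreated liver 9 probe sets passed the adjusted threshold (0.0398%). That count was 4 without untreated_WT 1 or untreated_WT 3, 14 without untreated_WT 2, 18 without untreated_KO 3, and 5 without any 1 of untreated_KO 1, MMS_WT 1, MMS_WT 3, MMS_KO 1 and MMS_KO 2. Of genes, 7.26% had an unadjusted limma p under 0.05 where 19.5% did after MMS. Genes whose groups did not overlap in both treatments numbered 143 with the same direction (1.15% of all) and 350 with opposite directions (2.82%). The first set held Pttg1, Adamdec1, Cd207, Lcn2, Sdf2l1, Derl3 and Nucb2, a calcium-binding secretory protein (-1.23 after MMS and -1.11 without). The secretory genes Sdf2l1 and Derl3 stood low in the knock-out livers with and without MMS, whereas Creld2 and Syvn1 stood at -0.31 and -0.08 untreated.

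No probe set passed the adjusted threshold of limma in the test of the difference between the genotype effects with and without MMS (0.0%), where 4009 (17.7%) had an unadjusted p under 0.05 and the smallest adjusted p was 0.0649. The count was 158 without untreated_KO 3, 104 without MMS_KO 3, 2 without MMS_WT 3 and 1 without MMS_KO 2. Genes at that value included Irs1, at -0.58 without MMS and 0.88 with it, Oasl1, at -0.69 and 0.86, Scd2, at -0.66 and 0.74, and Cdcp1, a transmembrane glycoprotein, at -0.96 and 1.05. Papln (0.52 and -0.96), Ang2 (0.77 and -1.11) and Prss21 (0.95 and -1.01) went from higher to lower. In each of the genes named so far the knock-out stood on opposite sides of the wild type in the 2 treatments. Papln, Ang2 and Prss21 were dim, with means over the 12 arrays of 5.89, 4.96 and 4.74. Irs1, Oasl1, Scd2 and Cdcp1 were brighter, at 10.71, 8.48, 8.95 and 8.58. The part of signal level in these directions was not tested. Nr1d1 was of another kind, at 3.60 and 0.59.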

How the data were processed

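Liver RNA was hybridised to 1-colour Affymetrix arrays, 1 array per animal. The authors deposited 1 log2 value per probe set and array, made with RMA, per the submitters' processing notes; the log base was taken from the usual RMA output and the range of the values, and the RMA version is not given in the sources used here. RMA corrects background, brings the probe signals of arrays to one distribution and summarises probes, which can hide shifts common to most transcripts. The deposited array medians still ran from 7.42 to 7.75, so the values did not share one distribution. No detection calls came with the values, so dim and absent transcripts were not told apart, and the number of arrays limits the precision.

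Samples were grouped by their titles. 64 control probe sets were set aside. Of 22626 others, 20380 had 1 gene symbol, 691 several and 1555 none. A gene was read by its brightest 1-symbol probe set (12393 genes). limma 3.58.1 (R 4.3.3) fitted 4 group means to 12 arrays (8 residual degrees of freedom), with Benjamini-Hochberg adjustment over all probe sets and a threshold of 0.05. The fit was tested on simulated data. Single probe sets of Mpg were also tested with an exact permutation test. Named were both Mpg probe sets, called genes, the 12 genes of smallest p with separate groups in each direction, the 5 of smallest p in each direction for the difference between treatments, up to 4 members of smallest p per list described, and the 10 neighbours on each side of Mpg. Creld2, Syvn1, Herpud1, Hsp90b1, Hspa5, Xbp1, Mthfd2, Psat1, Asns, Sesn2, Atf4, Ddit3, Orm2, Saa2, Saa1, Irf7, Isg20, Fdps, Pmvk, Hmgcs1, Mgmt, Cdkn1a, Dbp and Nucb2 were added after their values were seen. The comparison, the 25 gene lists and the 12 marker lists were chosen with earlier results of these data known, and the fits without MMS_KO 3 by list and with the 5′ to 3′ covariate were added after seeing the data. RefSeq promoter windows matched 9887 of the genes.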

Additional observations from a re-analysis of the deposited data

How the results depend on the processing

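The count of called probe sets, 4, was 5 after further quantile normalization, 4 after median centring, 4 from the 6 compared arrays alone, 4 with the 5′ to 3′ covariate and 9 with 1 probe set per gene. It was 200 among probe sets above the median of all means, 79 among those above 6 on at least 3 arrays, 64 with a trended and robust variance, 1482 with array weights and 1353 without both knock-out arrays numbered 3. Leaving out 1 array gave 3 to 1118, the latter without MMS_KO 3. The deviations of same-numbered MMS animals from their group means correlated at r = -0.48, 0.24 and -0.07, and those of untreated animals at -0.04, 0.26 and 0.17. Deviations from a mean of 3 arrays depend on each other, so these values cannot decide whether the numbers pair animals. A fit with the replicate block called 3. The untreated count of 9 became 3 from 6 arrays alone and 182 with array weights, and leaving out 1 array gave 4 to 18. The test of the difference between treatments, with 0 called, gave 43, 27, 28, 2344, 20 and 514 under the 2 signal filters, the trended variance, array weights, 1 probe set per gene and the removal of both arrays numbered 3, in that order, and 0 to 158 when 1 array was left out. All 3 Pttg1 probe sets were called in every setting that kept them. Of 2860 values for the 143 named genes and probe sets, 2623 kept their direction and side of the threshold, 218 newly passed it, 13 lost it, all of them Ighv14-2, and 6 changed sign. The sign changes were in small differences: with the covariate Rora became -0.066, Xbp1 0.108 and Atf4 -0.116. When 1 array was left out, Xbp1 ran from -0.291 to 0.067 and Atf4 from -0.015 to 0.337, both turning without MMS_WT 1, and Dbp ran from -0.305 to 0.027, turning without MMS_KO 2. The cause of these changes was not tested.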
